A study of Mus musculus with 8 samples.

Results

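The enzymes that build the sugar chains of mucins and cell-surface glycoproteins and glycolipids were followed in sorted bile duct cells of the mouse liver. Members were the genes whose symbol began with Galnt, Fut, Gcnt, St3gal, St6gal, St6galnac, St8sia, B3galt, B3gnt, B4galt or B4galnt followed by a digit, a rule that used no measured value. It found 71 of the 20377 gene symbols in the table. The transcript with the most reads stood for a gene where several were listed, as for 18 members.

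The series set the ST14high part of a duct population against its ST14low part, ST14 being the membrane serine protease matriptase, and its title concerns a duct cell subset that forms colonies readily. All cells came from the livers of wild-type C57BL/6 mice with no treatment named, and all had been sorted as MIC1-1C3+ and CD26- with blood cells removed, MIC1-1C3 being a surface antigen used to sort duct cells. RNA was sequenced from 4 ST14high and 4 ST14low samples. The labels give neither age nor sex, nor whether the samples of a population came from separate animals, so p-values here reflect only how far these samples spread, and that spread may be technical.

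Mucin-type chains start when a Galnt enzyme places N-acetylgalactosamine on serine or threonine; Gcnt enzymes then open branches, B3gnt and B4galt enzymes lengthen them, and sialic acid or fucose caps end them. N-linked chains and glycolipids receive many of the same extensions and caps. In bile ducts such glycans form the apical coat that faces bile, and sialylated and fucosylated chain ends are ligands of lectins and carry blood-group and Lewis antigens.

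The libraries held 6398307 to 42769988 counts, the smallest being ST14low replicate 3 and the largest ST14high replicate 3. Levels in a library are given in CPM, read counts scaled to the library's size after multiplying that size by edgeR's TMM factor. Duct markers stood high throughout: Epcam lay between 509.5 and 632 CPM and Sox9 between 403 and 527 CPM. The sort marker's own transcript did not separate the populations, since St14 stood at 305 ± 32.5 CPM (SD, n = 4) in ST14high and 329.9 ± 49.0 CPM (SD, n = 4) in ST14low, with a log2 fold change of -0.11 (edgeR adjusted p = 0.809). ST14high replicate 1 stood apart: in 6.72% of the 13749 genes tested its CPM was more than 2 times that of the next library. For each other library that share was 0% to 0.451%. ST14high replicate 1 had the highest CPM of the 8 libraries in 23% of these genes, but so had ST14low replicate 2, in 23.0%. ST14high replicates 3 and 4 also stood apart, by missing values: of genes with a median of at least 0.5 CPM in the other 7 libraries, 2.31% had no read in replicate 3 and 2.28% in replicate 4, against 0.0224% to 0.326% elsewhere. Values without ST14high replicate 1 are therefore given beside the results that rest on it.

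By the authors' deposited RPKM, read counts divided by transcript length and library size, which allow levels of different genes to be compared per length, the sialyltransferases of the St3gal family were the most abundant. St3gal4, which caps N-acetyllactosamine ends with sialic acid, led with 304 ± 39.4 RPKM (SD over the 8 libraries), 24.4% of the summed RPKM of all members. St3gal5, which makes the simplest ganglioside from lactosylceramide, came next at 152 ± 24.0 RPKM. St3gal4 exceeded St3gal5, and St3gal5 exceeded Galnt2, in 8 of 8 libraries. Other members came between them in ST14high replicate 1. There B4galnt2, at 136 RPKM, lay above St3gal5 at 105 RPKM, and St3gal6, at 79.3 RPKM, lay above Galnt2 at 50.7 RPKM.

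Below them the levels ran together. Galnt2, a broadly expressed starter of O-glycans, stood at 75.1 ± 13.4 RPKM and was above St6gal1 in 7 libraries. St6gal1, which adds sialic acid to N-glycans, at 65.3 ± 13.8 RPKM, and B4galnt1, the enzyme that extends gangliosides with N-acetylgalactosamine, at 63.8 ± 10.9 RPKM, could not be ordered, St6gal1 being higher in 4 of 8. B4galt6, a lactosylceramide synthase, followed at 56.5 ± 8.29 RPKM and St3gal6 at 45.3 ± 14.6 RPKM. In all, 25 members averaged over 10 RPKM, 18 lay between 1 and 10 RPKM, and 28 lay under 1 RPKM. ST14high replicate 1 alone set the class of some. B4galnt2 averaged 18.2 RPKM, with 136 RPKM there and 0.04 to 5.16 in the other libraries. Gcnt3 averaged 1.41 RPKM, with 10.5 there and at most 0.61 elsewhere, and Galnt6 1.06 RPKM, with 5.12 there and at most 0.84 elsewhere.

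**Figure D1:**
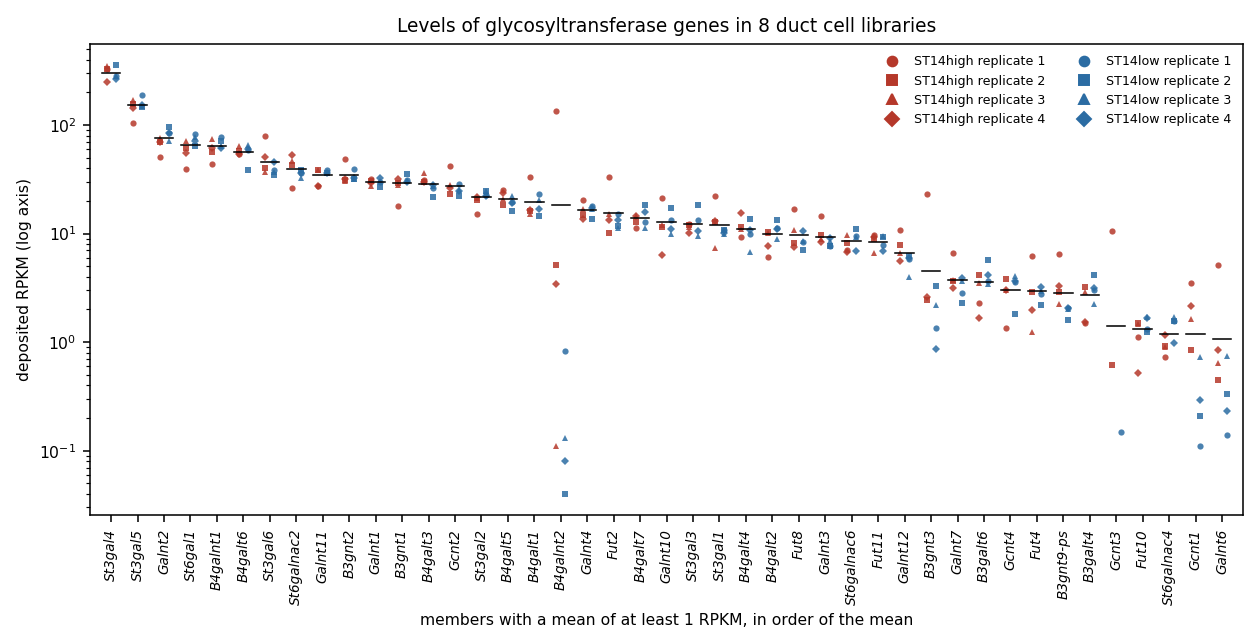
Deposited RPKM (log axis) of the members with a mean of at least 1 RPKM, ordered by that mean. Each point is 1 library, red for ST14high and blue for ST14low, and each black line is the mean of 8; St3gal4 at 304 and St3gal5 at 152 RPKM lead, and libraries at 0 RPKM (of Gcnt3 and B3gnt3) are not drawn.

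Summed by family, St3gal members reached 547 RPKM over the 8 libraries, Galnt members 189.9, B4galt members 160.0 and St8sia members 1.05. The duct cells thus held abundant transcripts for caps of the St3gal type and few for polysialic acid, the product of several St8sia enzymes. Reads were absent in all 8 libraries for 6 members: B3galt5, St6galnac1, Galnt9, Galnt13, St6gal2 and St8sia5. St6galnac1 makes the sialyl-Tn antigen, and B3galt5 builds type 1 chains. Their 0 counts allow a level of up to 0.0152 CPM over the 8 libraries together, a limit that covers counting error only. A further 7 members had 1 to 49 counts in all, Fut7 and Fut9 of the Lewis fucosyltransferases among them.

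Of the 71 members, 54 had enough reads to be tested between the populations and 17 did not. No tested member passed edgeR's adjusted threshold of 0.05, where the share over all genes was also 0%, and the smallest adjusted p of a member was 0.246, that of Gcnt1. At an unadjusted edgeR p under 0.05, 6 tested members were higher in ST14high and 0 were lower. Those 6 are 11.1% of the tested members, beside 6.89% of all genes higher, 2.68% lower and 9.56% in either direction. In 4 members, or 7.41%, every ST14high library lay above every ST14low library, against 4.09% of all genes. The reverse held for 0 members and for 2.33% of all genes. DESeq2 called 1 of 52 members, Gcnt1, beside 1.72% of all genes (234 of 13580), and limma called 0 members.

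The direction of the tested members as a whole turned on 1 library. With all 8 libraries, 32 of 54 had a log2 fold change above 0 (59.3%, beside 50.3% of all genes), and their median was 0.086 against 0.0023 over all genes. Without ST14high replicate 1, 21 of 55 were above 0 (38.2%, beside 47.8% of all genes), the median was -0.083, and 4 were higher and 0 lower at an unadjusted edgeR p under 0.05, beside 6.05% of all genes higher, 3.65% lower and 9.7% in either direction. That p was also sensitive to others: 10 of 57 members passed it without ST14high replicate 3, beside 10.1% of all genes, and 3 of 56 without ST14low replicate 1, beside 6.43%. Members without overlap in either direction numbered 7 of 55 without ST14high replicate 1, beside 11.8% of all genes (6.74% higher and 5.07% lower). They numbered 9 of 57 without ST14high replicate 3 (10.6% of all genes), 8 of 56 without ST14high replicate 4 (8.88%) and 8 of 55 without ST14low replicate 3 (12.7%).

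**Figure D2:**
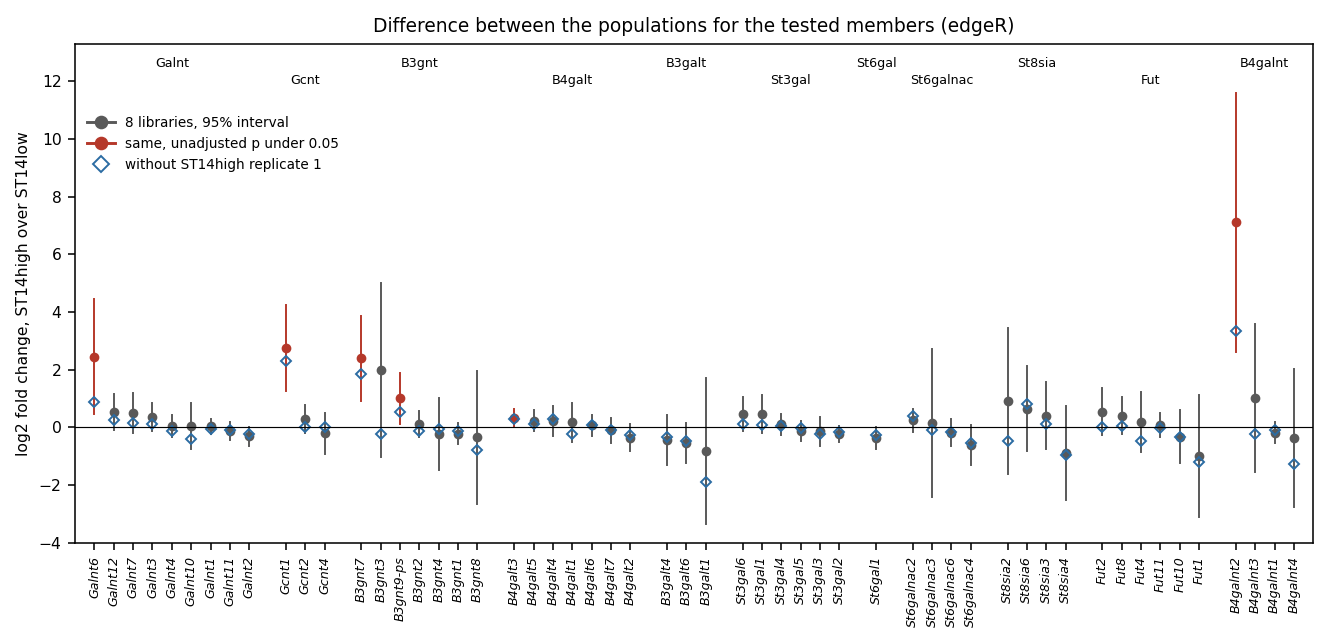
Log2 fold change of ST14high over ST14low (vertical axis) for the 54 tested members, grouped by family. Circles are edgeR estimates with 95% intervals, red where the unadjusted p was under 0.05, and open blue diamonds are estimates without ST14high replicate 1; B4galnt2 moves from 7.11 to 3.34 and Gcnt1 from 2.75 to 2.30.

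Among the branching enzymes, Gcnt1 differed most steadily between the populations. Gcnt1 opens the core 2 branch of O-glycans, on which sialyl Lewis x ligands of selectins are carried. Its transcript, at chr19:17400630-17431157 on the minus strand of mm9, had 17.1, 3.62, 7.37 and 9.53 CPM in ST14high replicates 1 to 4. In ST14low replicates 1 to 4 it had 0.469, 0.973, 3.24 and 1.25 CPM. The populations did not overlap, although ST14high replicate 2 and ST14low replicate 3 lay close together.

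The means for Gcnt1 were 9.41 ± 5.69 and 1.48 ± 1.22 CPM (SD, n = 4 each), and the fitted difference was 6.71-fold, a log2 fold change of 2.75 with an SE of 0.66 and a 95% interval of 1.27 to 4.22. By edgeR the adjusted p was 0.246, and by DESeq2 it was 0.00237. In the exact two-sided permutation test of log2(CPM + 0.5), p was 0.0286, the smallest that the 70 arrangements of 8 libraries can give. Leaving out each library in turn kept edgeR's log2 fold change of Gcnt1 between 2.30 and 3.37, with adjusted p from 0.141 to 0.619. In the same 8 runs DESeq2, an analysis added after the data were seen, called Gcnt1 every time, with adjusted p from 1.93e-05 to 0.0298. In bulk samples, fewer cells of a type and less RNA per cell cannot be told apart.

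The other branching enzymes gave no such separation. Gcnt2, which makes the I-antigen branches of polylactosamine, was the most abundant of them per length at 27.5 ± 6.23 RPKM (SD over 8 libraries). It had 178, 85.8, 109 and 98.4 CPM in ST14high and 109, 87.8, 94.9 and 93.0 CPM in ST14low, so that only ST14high replicate 1 stood above the rest, and the log2 fold change of 0.29 (SE 0.22) became 0.022 without it. Gcnt4, another core 2 enzyme, had 7.39, 18.2, 15.3 and 14.7 CPM in ST14high and 17.6, 9.27, 19.9 and 17.8 CPM in ST14low, with overlapping populations and a log2 fold change of -0.21 (SE 0.32). Gcnt3, the core 2 and core 4 enzyme of mucin-secreting epithelia, was named after its values were seen. It had 48.3 and 2.47 CPM in ST14high replicates 1 and 2, 0.639 CPM in ST14low replicate 1 and no read in the other 5 libraries, so it was left untested.

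**Figure D3:**
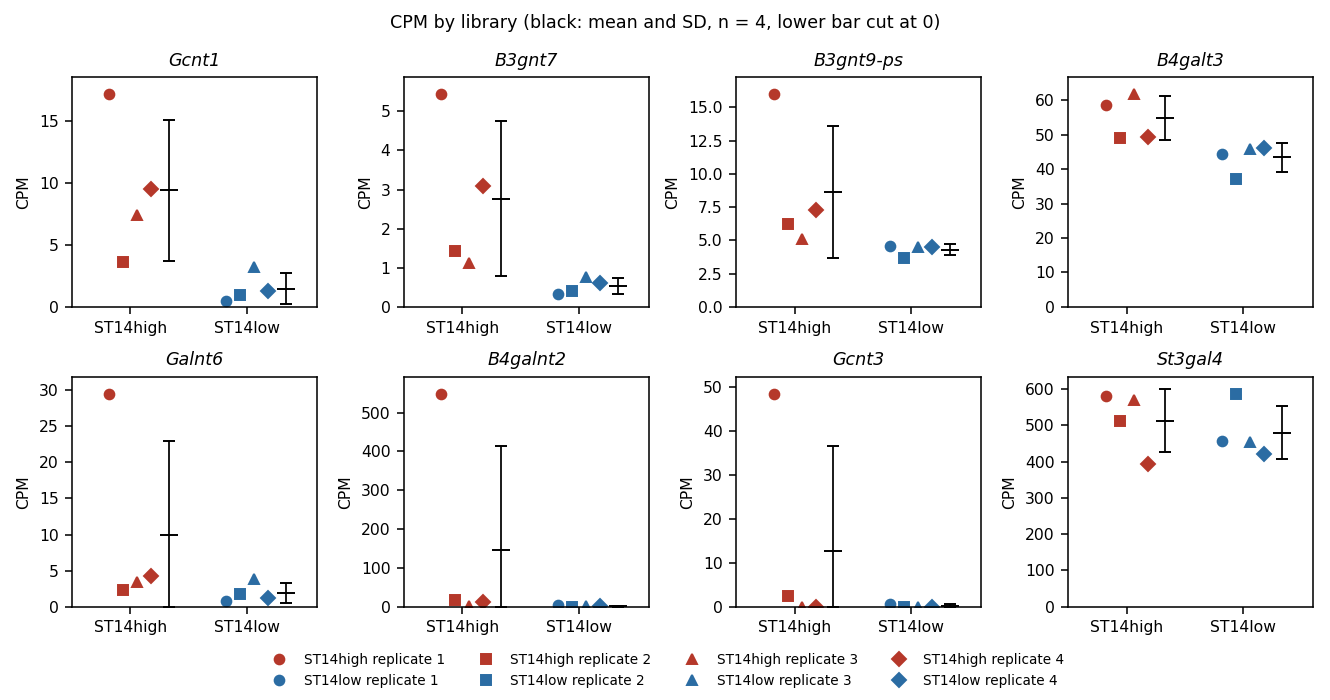
CPM of 8 members in each library (linear axes from 0), red for ST14high, blue for ST14low, with a marker shape for each replicate number; black bars are the mean and SD of 4, with lower bars cut at 0. Gcnt1, B3gnt7, B3gnt9-ps and B4galt3 do not overlap between the populations, Galnt6, B4galnt2 and Gcnt3 are led by ST14high replicate 1, and St3gal4 overlaps.

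Promoter sequence is shown for Gcnt1, the member DESeq2 called, for B4galnt2, which had the largest fold change, and for St3gal4, the most abundant member. The windows are the 250 bases before annotated starts from RefSeq on GRCm38.p6, a later build than the mm9 of the counts. All are on the minus strand and are printed 5′ to 3′ along the gene, with matches on either strand to 6 motifs in capitals: the TATA box, the CCAAT box, the GC box and sites of AP-1, HNF1 and TEAD factors. No motif overlaps another in these windows.
Gcnt1, first listed start, chr19:17372845-17373094: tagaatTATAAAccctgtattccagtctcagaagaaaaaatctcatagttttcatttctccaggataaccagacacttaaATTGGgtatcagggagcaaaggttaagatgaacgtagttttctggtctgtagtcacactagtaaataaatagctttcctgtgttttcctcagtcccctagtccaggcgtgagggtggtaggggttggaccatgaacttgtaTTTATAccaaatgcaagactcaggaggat
Gcnt1, second listed start, chr19:17356668-17356917: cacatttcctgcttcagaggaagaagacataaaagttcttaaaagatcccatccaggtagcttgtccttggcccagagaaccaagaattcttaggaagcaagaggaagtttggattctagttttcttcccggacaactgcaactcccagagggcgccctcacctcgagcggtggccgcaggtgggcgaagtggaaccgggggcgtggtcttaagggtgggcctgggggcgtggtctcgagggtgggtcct
B4galnt2, chr11:95914872-95915121: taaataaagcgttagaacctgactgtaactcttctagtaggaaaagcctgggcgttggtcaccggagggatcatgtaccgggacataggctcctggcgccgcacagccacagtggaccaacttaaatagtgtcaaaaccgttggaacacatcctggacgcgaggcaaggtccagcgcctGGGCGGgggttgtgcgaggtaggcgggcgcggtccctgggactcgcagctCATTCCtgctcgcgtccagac
St3gal4, chr9:35116865-35117114: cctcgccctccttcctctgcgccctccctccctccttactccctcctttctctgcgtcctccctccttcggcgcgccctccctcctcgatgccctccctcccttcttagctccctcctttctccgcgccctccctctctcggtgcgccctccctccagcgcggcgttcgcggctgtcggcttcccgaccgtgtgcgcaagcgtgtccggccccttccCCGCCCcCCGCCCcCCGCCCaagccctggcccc
The first Gcnt1 window had TATA letters 244 bases before the start on the gene's strand and 29 bases before it on the opposite strand. A CCAAT box lay 170 bases before the start, also on the opposite strand. The GC content of this window was 40.4%, with 2 CpG pairs. The second Gcnt1 window had a GC content of 55.6%, 10 CpG pairs and none of the motifs. By GENCODE's annotation of GRCm38, the transcript counted here starts directly after the second window, and another Gcnt1 transcript starts after the first. In these counts the Gcnt1 transcripts had 1086 and 1048 reads, nearly all shared, so they do not tell the starts apart. The St3gal4 window had 3 adjoining GC boxes, a GC content of 72.8% and 25 CpG pairs, and the B4galnt2 window a GC content of 58.4% and 18 CpG pairs.

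RefSeq's table held 69 windows for 51 members. The TATA box, searched as TATAAA, was in 1 of these windows (1.45%), the first one of Gcnt1, and in 12.4% of the 32851 windows of all genes. The GC box, searched as GGGCGG, was in 53.6% of member windows and 32.7% of all windows. The CCAAT box, searched by the letters of its name, was in 29% and 33.8%. For the AP-1 site, searched as TGANTCA, the shares were 2.9% and 6.75%. For the HNF1 site, searched as GTTAAT, they were 1.45% and 6.43%, and for the TEAD site, searched as GGAATG, 11.6% and 12.6%. The median GC content was 59.6% over member windows and 52.4% over all, with a median of 14 and 6 CpG pairs. A match describes letters only, and no start in use was measured here.

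Of the 13 members that start O-GalNAc chains, 9 were tested, 7 with a log2 fold change above 0 and 2 below. Their median was 0.038, or -0.048 without ST14high replicate 1. Galnt2 was somewhat lower in ST14high, with 196, 238, 269 and 239.8 CPM in ST14high and 297, 342, 245 and 286 CPM in ST14low. ST14high replicate 3 lay above ST14low replicate 3, so the populations overlapped, and the log2 fold change was -0.31 (SE 0.15, exact permutation p = 0.0571). Galnt11 had 63.2, 77.4, 82.4 and 56.5 CPM in ST14high and 80.4, 77.9, 75.5 and 73.8 CPM in ST14low, the ST14high values spreading beyond the ST14low ones on both sides, with a log2 fold change of -0.14 (SE 0.14).

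Galnt6, a starter enzyme that also acts on fibronectin, was high in a single library. It had 29.5, 2.27, 3.40 and 4.30 CPM in ST14high and 0.725, 1.74, 3.86 and 1.19 CPM in ST14low. The log2 fold change was 2.45 (SE 0.90, edgeR adjusted p = 0.446), and without ST14high replicate 1 it was 0.88. DESeq2 gave no adjusted p for Galnt6 with all libraries and called it only without ST14high replicate 3 (adjusted p = 0.037). The other 6 tested starters had log2 fold changes from 0.028 for Galnt1 to 0.52 for Galnt12. Galnt5, with 25 counts, had reads only in ST14high replicates 1 and 2.

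Chain extension, the largest group tested (17 of 54 members), held 3 of the 4 members without overlap. That was 17.6% of the group, beside 7.41% of tested members and 4.09% of all genes higher in ST14high without overlap. B3gnt7, which lengthens the lactosamine chains of keratan sulfate, had 5.43, 1.43, 1.13 and 3.09 CPM in ST14high. In ST14low it had 0.341, 0.410, 0.772 and 0.625 CPM. Every ST14high library was above every ST14low library, on only 315 counts over the 8 libraries. Its log2 fold change was 2.39 (SE 0.66), with an adjusted p of 0.287 by edgeR and 0.0502 by DESeq2, and it was 1.84 without ST14high replicate 1. DESeq2 called B3gnt7 without ST14high replicate 2 (adjusted p = 0.0489) and without ST14high replicate 3 (adjusted p = 0.00853).

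B3gnt9-ps, whose transcript RefSeq lists as B3gnt9, had 16.0, 6.21, 5.10 and 7.30 CPM in ST14high and 4.56, 3.69, 4.47 and 4.50 CPM in ST14low. The ST14low libraries were close together and all ST14high libraries lay above them, ST14high replicate 1 by far. The log2 fold change was 1.00 (SE 0.39, edgeR adjusted p = 0.474), and 0.53 without that library. An opposite-strand gene, D230025D16Rik, overlaps this transcript, and without a stated strand setting their reads cannot be told apart.

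B4galt3, a galactosyltransferase that builds N-acetyllactosamine on N-glycans, showed the smallest difference of the 4 but with little spread. It had 58.6, 49.1, 61.6 and 49.4 CPM in ST14high and 44.4, 37.2, 45.7 and 46.1 CPM in ST14low. The means were 54.7 ± 6.38 and 43.3 ± 4.13 CPM (SD, n = 4 each), a 1.26-fold difference with a log2 interval of 0.023 to 0.65 and an edgeR adjusted p of 0.50. Without ST14high replicate 1 the log2 fold change was 0.30.

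The abundant extension enzymes overlapped between the populations. B4galt6 had 321, 301, 351 and 292 CPM in ST14high and 320.0, 215, 354 and 315 CPM in ST14low, with a log2 fold change of 0.071 (SE 0.17) that became -0.075 without ST14low replicate 2. B3gnt2, the principal polylactosamine synthase, had 138, 78.0, 81.1 and 82.2 CPM in ST14high and 102, 85.6, 82.6 and 81.7 CPM in ST14low. Apart from ST14high replicate 1 its ST14high libraries did not exceed the ST14low range, and the log2 fold change of 0.11 (SE 0.20) became -0.13 without that library.

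B3gnt1, which RefSeq lists as B4gat1, an enzyme of dystroglycan's matriglycan, had 38.8, 55.0, 54.9 and 60.9 CPM in ST14high and 60.1, 71.1, 58.5 and 57.0 CPM in ST14low, with a log2 fold change of -0.23 (SE 0.16). B3galt6, which builds the linker of proteoglycans, had 7.89, 12.6, 11.2 and 5.16 CPM in ST14high and 11.5, 18.3, 10.8 and 12.8 CPM in ST14low, with a log2 fold change of -0.54 (SE 0.31). B3galt4, which galactosylates gangliosides, had 2.53, 4.77, 4.51 and 2.31 CPM in ST14high and 4.65, 6.51, 3.39 and 4.66 CPM in ST14low, with a log2 fold change of -0.45 (SE 0.39). For these 3 genes ST14high averaged lower, but in each the highest ST14high library lay above the lowest ST14low library.

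B3gnt3, the enzyme that extends core 1, was named after its values were seen. It had 50.9, 4.61 and 5.02 CPM in ST14high replicates 1, 2 and 4, no read in ST14high replicate 3, and 2.64, 6.66, 4.32 and 1.66 CPM in ST14low. On the log2 scale its fold change of 1.99 (SE 1.35) became -0.25 without ST14high replicate 1. Over the 21 extension enzymes, 17 were tested, 9 above 0 and 8 below, with a median of 0.071, or -0.100 without that library.

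None of the 15 tested enzymes of the 20 that add sialic acid passed an unadjusted edgeR p of 0.05, with 8 above 0, 7 below and a median of 0.097, or -0.091 without ST14high replicate 1. St3gal4 had 581, 511, 569 and 393 CPM in ST14high and 457, 587, 455 and 421 CPM in ST14low. The highest and the lowest value were thus in ST14low replicate 2 and ST14high replicate 4, and the log2 fold change was 0.097 with a 95% interval of -0.28 to 0.47. St3gal5 had 252, 328, 379 and 307 CPM in ST14high and 409.8, 328, 325 and 322 CPM in ST14low, with a log2 fold change of -0.13 (SE 0.16) with overlapping populations.

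St6gal1 averaged lower in ST14high without passing a test. It had 179, 248, 298 and 225 CPM in ST14high and 342, 271, 322 and 289 CPM in ST14low. Only ST14high replicate 3 reached into the ST14low range. The log2 fold change was -0.36 (SE 0.17, edgeR adjusted p = 0.518, exact permutation p = 0.0857), and -0.25 without ST14high replicate 1.

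St6galnac2, which adds sialic acid to the first sugars of O-glycans, had 49.3, 70.3, 79.4 and 87.8 CPM in ST14high and 61.3, 66.5, 55.1 and 60.0 CPM in ST14low. Here ST14high replicate 1 was the lowest of all while the other ST14high libraries were the highest. The log2 fold change of 0.24 (SE 0.18) became 0.38 without that library, at an unadjusted edgeR p of 0.0192 and with no overlap. St6galnac6, a sialyltransferase of gangliosides and O-glycans, had 17.2, 17.2, 21.7 and 14.6 CPM in ST14high and 20.9, 24.4, 20.2 and 14.8 CPM in ST14low, with a log2 fold change of -0.18 (SE 0.21).

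The polysialic acid enzyme St8sia4 had 1.07, 0.398, 0.590 and 1.72 CPM in ST14high and 0.597, 1.38, 3.86 and 1.41 CPM in ST14low. St8sia6 had 0.631, 0.875, 1.13 and 1.57 CPM in ST14high and 1.15, 0.205, 0.772 and 0.594 CPM in ST14low. Both overlapped between the populations, with log2 fold changes of -0.89 (SE 0.73) for St8sia4 and 0.64 (SE 0.66) for St8sia6. St8sia4 went to -0.26 without ST14low replicate 3, its highest library.

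Of the 8 fucosyltransferases, 6 were tested, 4 above 0 and 2 below, and 0 passed an unadjusted edgeR p of 0.05; their median was 0.13, or -0.19 without ST14high replicate 1. Fut2, which makes the H antigen of secretory epithelia, had 100.4, 27.1, 42.8 and 36.0 CPM in ST14high and 41.9, 33.0, 31.0 and 35.6 CPM in ST14low. On the log2 scale its fold change of 0.54 (SE 0.36) became -0.0070 without ST14high replicate 1, the only library above the others. Fut8, which adds the core fucose of N-glycans, was also highest in that library, with 48.6, 20.6, 28.2 and 19.3 CPM in ST14high and 21.5, 18.7, 21.9 and 26.5 CPM in ST14low, with a log2 fold change of 0.39 (SE 0.29) that became 0.035.

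B4galnt2, which makes the Sda antigen of the gut surface, had the widest spread of the members. It had 548, 18.2, 0.401 and 12.3 CPM in ST14high and 2.98, 0.154, 0.463 and 0.281 CPM in ST14low. ST14high replicates 1, 2 and 4 lay above the ST14low range, but replicate 3 lay within it, below ST14low replicates 1 and 3. The means were 145 ± 269 and 0.970 ± 1.35 CPM (SD, n = 4 each). On the log2 scale the fold change was 7.11 (SE 2.01, edgeR adjusted p = 0.301, exact permutation p = 0.0857). It was 3.34 without ST14high replicate 1 and 9.07 without ST14low replicate 1, and DESeq2 gave no adjusted p.

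B4galnt1, its relative in ganglioside synthesis, had 95.6, 108, 150.1 and 121 CPM in ST14high and 153, 145, 125 and 118 CPM in ST14low, with a log2 fold change of -0.19 (SE 0.16) with overlap. The other 2 members of that group, B4galnt3 and B4galnt4, lay at 0 to 5.11 CPM and had no read in ST14high replicate 4.

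Single libraries set many of the extreme values. ST14high replicate 1 was the highest of the 8 libraries in 26 of 54 tested members (48.1%), beside 23% of all genes. It was more than 2 times the next library in 8 members (14.8%, beside 6.72%), namely B3gnt3, B3gnt9-ps, B4galnt2, B4galnt3, Fut2, Fut4, Galnt6 and St8sia2. Missing values also fell on members: B3galt1, B3gnt3 and St6galnac3 had no read in ST14high replicate 3, where the median of the other libraries would give 34.8 to 197 counts. In ST14high replicate 4 this held for B3gnt8, B4galnt3, B4galnt4, Fut1 and St8sia2, where 17.1 to 35.7 counts would be met, and in the other 6 libraries for 0 members.

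**Figure D4:**
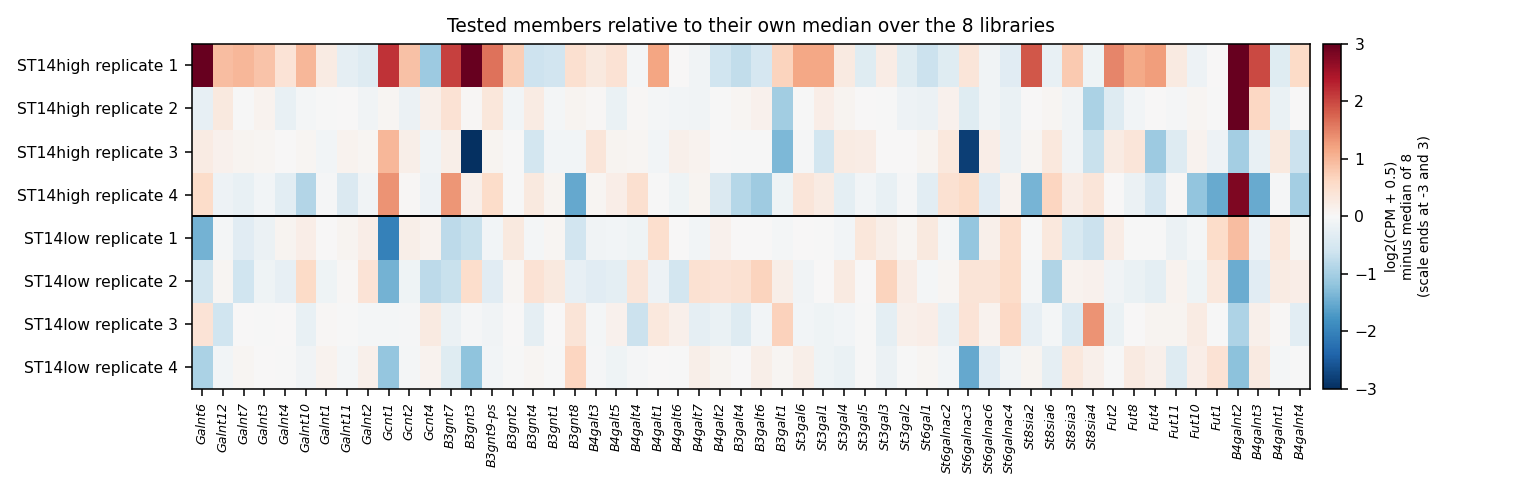
Tested members (columns, by family) in the 8 libraries (rows), coloured by log2(CPM + 0.5) minus the member's median over the libraries, from blue below the median to red above it, with colours ending at -3 and 3. ST14high replicate 1 holds the highest value in 26 of 54 columns, and the dark blue cells of ST14high replicate 3 are members with no read there.

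Markers of other cells moved in the same library. The summed CPM of 16 markers of mucous and goblet cells was 4391 in ST14high replicate 1. It was 1359 to 1637 in the other ST14high libraries and 1094 to 1476 in ST14low, with Tff1 at 0 in all. Only 7 of the 16 had enough reads to be tested. Muc1, among the 16, was at 264 CPM or more in every library and at 1191 CPM in ST14high replicate 1. The 12 pancreatic acinar markers summed to 10703 CPM in ST14high replicate 1 and 1564 in replicate 2, to 5.67 and 11.9 in replicates 3 and 4 and to 4.94 to 121 in ST14low, with Amy2a5 at 0. Stellate and fibroblast markers, 11 genes, summed to 454 to 2609 CPM in ST14high and 153 to 353 in ST14low, and 7 mesothelial genes to 299 to 1027 and 156 to 269, so neither overlapped. ST14high replicate 1 set both upper ends, and the other ST14high libraries reached 698 and 403 CPM. The 11 macrophage markers summed to 242 to 353 CPM in ST14high and 350 to 923 in ST14low, the 12 endothelial ones to 21.9 to 1197 and 309 to 1292, and the 11 of other leukocytes to 0.0708 to 19.5 and 10.4 to 36.5. The same library set the upper end of each within ST14high, where the other libraries reached 391 CPM for endothelial markers. Hepatocyte markers, 10 genes, summed to 5653 to 13811 and 9306 to 16674 CPM, and the 12 duct markers to 15826 to 26475 and 20494 to 27395. Both sums were lowest in ST14high replicate 1. The part of these cell types in the differences of Gcnt1, B3gnt7, Galnt6, B4galnt2 and the other members was not tested.

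The genes around these enzymes were read from 9 lists. No listed gene passed edgeR's adjusted threshold. DESeq2 called Cmah and Chst4 among them. For Mgat3, Lgals2, Lgals4, Selp and Muc4 it gave no adjusted p, so it could not call them. Cmah, which turns N-acetyl- into N-glycolylneuraminic acid, had 40.9, 11.5, 11.5 and 14.3 CPM in ST14high and 4.13, 4.66, 6.63 and 4.82 CPM in ST14low, without overlap. Its log2 fold change was 1.96 (SE 0.44), with an adjusted p of 0.202 by edgeR and 0.00242 by DESeq2, and without ST14high replicate 1 it was 1.31.

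Chst4, which sulfates N-acetylglucosamine on the O-glycans of selectin ligands, had 38.1, 5.61, 8.62 and 3.65 CPM in ST14high and 0.980, 0.666, 3.09 and 0.125 CPM in ST14low, also without overlap. Its log2 fold change was 3.70 (SE 1.02), with an adjusted p of 0.284 by edgeR and 0.00332 by DESeq2, and without ST14high replicate 1, the highest by far, it was 2.45.

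Of 5 tested genes for the first steps beside the members, 3 were above 0 and 1, Galntl2, had an unadjusted edgeR p under 0.05 (log2 fold change 2.22, or 1.57 without ST14high replicate 1). Galntl2 and Galntl1 are starters too, listed under older symbols that the member rule does not match. C1galt1, the core 1 synthase, stood at 69.4 ± 3.59 and 61.7 ± 15.9 CPM (SD, n = 4 each). Of 12 tested N-glycan branching genes, 3 were above 0 and 9 below, and at that p Mgat3, which adds the bisecting residue, was higher and Mgat1, which opens complex N-glycans, was lower. Mgat3 had 137 CPM in ST14high replicate 1, 17.8 to 26.1 in the other ST14high libraries and 7.38 to 14.1 in ST14low, and its log2 fold change of 2.26 became 1.04 without that library. Mgat1 had 244 to 315 CPM in ST14high and 329.9 to 569.8 in ST14low, which did not overlap.

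Nucleotide sugar synthesis had 23 tested genes, 12 above 0 and 11 below, with Cmah, Pgm3 and Gfpt2 higher at an unadjusted edgeR p under 0.05 and 0 lower; Gfpt2 had a log2 fold change of 1.25, or 0.39 without ST14high replicate 1. The 12 sugar transporters of the Golgi had 7 above 0 and 5 below, and 0 passed that p. Sulfation had 9 tested genes, 5 above 0, with Chst4, Gal3st2 and Chst8 passing it (Gal3st2 at a log2 fold change of 1.75, or 0.68 without ST14high replicate 1), and the 7 genes that start glycolipids had 6 above 0 and 0 passing. Of 11 tested genes that remove glycans, 4 were above 0, Neu3, a sialidase of the plasma membrane, was higher at that p, and Fuca2 was among the lower ones.

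Lectins, which bind the finished chains, had 13 tested genes with 6 above 0, with Lgals2, Lgals3, Lgals4 and Selp higher and Asgr1 lower at an unadjusted edgeR p under 0.05, the last of each direction named after its value was seen. Lgals4, a galectin of gut epithelium, had 319 CPM in ST14high replicate 1, 17.4 to 36.2 in the other ST14high libraries and 4.76 to 14.3 in ST14low, without overlap, and its log2 fold change of 3.25 became 1.28 without that library. Without it Lgals2 went from 2.31 to 1.14, Lgals3 from 2.25 to 0.46 and Selp from 3.73 to 0.49. Of the mucins, which carry many of these chains, 5 of the 12 in the table were tested, 4 above 0. Muc1 had 1191, 337, 488 and 486 CPM in ST14high and 475, 293, 264 and 331 CPM in ST14low, with a log2 fold change of 0.88 (edgeR adjusted p = 0.504) that became 0.36 without ST14high replicate 1. Muc4 had 403, 23.6, 0.0236 and 7.89 CPM in ST14high and 0.980, 0.205, 0 and 0.406 CPM in ST14low, high and low in the same ST14high libraries as B4galnt2. Its log2 fold change of 7.82 became 4.52 without ST14high replicate 1. Leaving out that library, the median of the mucins went from 0.88 to 0.36, and that of the lectins from -0.25 to -0.24.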

How the data were processed

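RNA sequencing of 4 ST14high and 4 ST14low samples was analysed. The submitters' processing notes name the build mm9, Bowtie 1.0.0 and CASAVA 1.8.2 and do not say what each did. How reads were counted, with which annotation and strand setting, is not given in the sources used here. The authors deposited, per the file headers, a raw count and an RPKM value for each of 26005 transcripts. Library totals were 17418202, 24149337, 42769988 and 33014559 counts for ST14high replicates 1 to 4 and 23321501, 19878910, 6398307 and 31011678 for ST14low.

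The deposited RPKM entered level comparisons only. The transcript with the most counts was kept for each symbol, since transcripts of 1 gene share reads. The test of the counts was that of edgeR 4.0.16, run in R 4.3.3 (quasi-likelihood test, TMM, filterByExpr, population as the only term), with two-sided p-values adjusted by Benjamini-Hochberg over 13749 genes and called under 0.05. Genes varied between samples by 38.4% (edgeR's common biological coefficient of variation). edgeR's test gives no SE, so the SE was derived as the absolute log2 fold change divided by the square root of its F statistic. Intervals are at 95% and were built from that SE with the t distribution. Exact permutation used log2(CPM + 0.5). Fold changes are ST14high over ST14low. Alternatives were DESeq2 1.42.0, limma 3.58.1 (voom with quality weights), other scaling factors and low-count filters, robust dispersion, the longest transcript, plain CPM, a replicate block, and each library left out. The edgeR procedure was also run on simulated counts that held no outlying library and no added missing values. That run therefore does not cover those features of the data. Promoter windows came from RefSeq. Figures were drawn with matplotlib 3.10.9 in Python 3.11.15.

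The members and gene lists were chosen with earlier results of these data known. Per-library values were given for the 2 members of highest mean RPKM in each family, those with an unadjusted edgeR p under 0.05 and those without overlap on at least 50 counts. Of each list, up to 3 genes of smallest p and 2 of highest CPM could be named. Reads of 6 members lie where another gene overlaps, on the same strand for Galnt4 (Poc1b) and for St6galnac4 (St6galnac6). A result for a gene of the lists is not reported here.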

Additional observations from a re-analysis of the deposited data

Results flagged for a closer look

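In 6 of 50 sets of 4 libraries, 1 library lay far from the other 3. The sets were those of the 25 members given by library, and 3 of the 6 flagged libraries were ST14high replicate 1. The rule flags about 1 in 20 independent sets of normally spread values. That rate cannot be compared with these sets, which share the same libraries and include members chosen by p or overlap in the same values. Gcnt3 and B3gnt3, chosen after their values were seen, added 3 more flags. In ST14high, replicate 1 was at 138 CPM for B3gnt2, with the others at 78.0 to 82.2. For B4galnt2 it was at 548 CPM, with the others at 0.401 to 18.2. Galnt6 reached 29.5 CPM there against 2.27 to 4.30 in the others. Gcnt3 reached 48.3 CPM against 0 to 2.47, and B3gnt3 50.9 CPM against 0 to 5.02. In ST14low, replicate 1 was high for St3gal5, at 409.8 CPM with the others at 322 to 328. It was also high for B4galnt2, at 2.98 CPM against 0.154 to 0.463, and for Gcnt3, at 0.639 CPM with the others at 0. ST14low replicate 2 was low for B3gnt9-ps, at 3.69 CPM with the others at 4.47 to 4.56.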

How the results depend on the processing

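Under the alternatives, edgeR and limma called 0 members (leave-one-out range 0 to 0), and DESeq2 called 1, with 234 of all genes; leave-one-out runs of DESeq2, added after the data were seen, called 1 to 3 members. Leave-one-out runs of edgeR called 0 of all genes. The members at an unadjusted p under 0.05, 6 with all libraries, were 2 with at least 5 CPM in at least 4 libraries, where fewer genes are tested, and 3 to 10 when each library was left out. Members without overlap were 4 to 9 in those runs and 3 to 5 under the other settings. The median log2 fold change of the tested members was -0.066 by limma voom and -0.083 to 0.16 with each library left out. With the replicate number as a block, edgeR called 0 members and 2 of all genes, and 3 members had an unadjusted p under 0.05. The labels do not say whether the numbers pair the samples, and pairing was not tested beyond correlations. Same-numbered samples correlated at -0.13 to 0.07. A best match was sought for the ST14high samples only, and 0 of them correlated best with the ST14low sample of their own number. Of 416 values of the 25 members given by library under the planned settings, 407 kept direction and side of the threshold, 1 was the DESeq2 call of Gcnt1, and 8 changed sign. DESeq2's lack of an adjusted p for Galnt6 and B4galnt2 is not counted. In the leave-one-out runs of DESeq2, 200 values in all, 11 were calls (8 of Gcnt1, 2 of B3gnt7, 1 of Galnt6), 3 changed sign (B3gnt2, B4galt6 and Fut2) and 13 had no adjusted p. By limma voom B3gnt2 was at -0.051, B4galt6 at -0.053, Fut2 at -0.065, Fut8 at -0.030 and St6galnac6 at 0.026. With each library left out B3gnt2 ran from -0.13 to 0.19 (lowest without ST14high replicate 1), Fut2 from -0.0070 to 0.75 (the same library) and B4galt6 from -0.075 to 0.15 (lowest without ST14low replicate 2); the cause was not tested. Depth limits the 28 members under 1 RPKM most, and ST14low replicate 3, with 6398307 counts, sets the coarsest step.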
